A study of Bubalus bubalis with 6 samples.

Results

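A set of 10 genes is commonly used to recognise or purify muscle satellite cells, the resident stem cells of skeletal muscle, or to follow their quiescence, and 9 of them were rows of the 24616 genes in the deposited gene table of buffalo muscle stem cells (MuSCs). The members were taken by gene symbol. They were CALCR, SPRY1, CD34, CXCR4, NCAM1, SDC3, SDC4, CD82 and MCAM, whereas VCAM1 was not found by its symbol and was not analysed here. Of the 9 listed genes, 8 reached the minimum of 10 counts, summed across all 6 samples, and were tested, while CALCR did not reach it.

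The study sequenced polyadenylated RNA of MuSCs (Bubalus bubalis) from fetal longissimus muscle in proliferation (GM, 3 samples) and in differentiation (DM, 3 samples). GM cells grew in medium with fetal bovine serum, and DM cells were moved to low-serum medium with horse serum, in which the cells fuse into myotubes. The labels give no time in differentiation medium, although the study's methods state a span of days. No genetic change or drug is named for either group. The labels do not say whether the 3 samples of a group were separate cultures or animals, so the p-values measure only the spread between these samples, which may be technical. Cultured primary cells of this kind have already left quiescence, so neither group stands for quiescent cells in muscle.

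Satellite cells lie under the basement membrane of the fibre and carry adhesion molecules, proteoglycans and chemokine receptors on their surface. In mouse muscle, the calcitonin receptor CALCR and the receptor tyrosine kinase inhibitor SPRY1 are known for keeping satellite cells quiescent. CD34, CXCR4, VCAM1, the syndecans SDC3 and SDC4 and the tetraspanin CD82 are used to isolate them, NCAM1 and MCAM also mark committed myoblasts, and several of these genes are expressed by blood vessel or blood cells as well.

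The samples held between 35615864 and 40305237 gene counts each, and a detection limit of 3 counts was used for each sample. All 8 proliferation markers were called lower in DM, led by the mitotic cyclin CCNB1 (log2 fold change -2.38), and all 13 myotube markers tested were called higher, led by the perinatal myosin MYH8 (7.19). The muscle stem cell markers PAX7, MYF5, MYOD1, CDH15, ITGA7 and DES were present in every sample of both groups, while PAX3 had 2 to 6 counts in GM and 0 in DM. Being present did not mean unchanged, as MYF5 (log2 fold change -2.70) and ITGA7 (-1.96) were called lower in DM. MYOD1 had the only log2 fold change above 0 among these markers (0.90) and, like PAX7, CDH15 and DES, was not called. The third DM sample (DM3) stood apart: a chi-square statistic of its counts against the other DM samples was 40.5 to 41.4 per degree of freedom, compared with 11.7 between DM1 and DM2 and 6.22 to 10.6 between GM samples. The changes of NCAM1 and MCAM are therefore also given without DM3, and the marker calls were repeated without each sample. Changes of list genes are given with DM3.

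Called were 3 members, where a call means an absolute log2 fold change above 1 and a Benjamini-Hochberg adjusted p under 0.05 in edgeR's quasi-likelihood test over all 15576 genes tested. SDC3 and CD82 rose in DM and SDC4 fell. These 3 of 8 are 37.5%, beside 25.3% of all genes tested. In single directions, 2 of 8 were called higher beside 15% of all genes, and 1 of 8 was called lower beside 10.3%. At an adjusted p under 0.05 and any fold change, 6 of 8 differed (75%, beside 63% of all genes), namely SPRY1, SDC3 and CD82 upwards and NCAM1, SDC4 and MCAM downwards. The groups did not overlap in normalised counts for 5 of 8 members (62.5%, beside 68.8% of all genes). The median log2 fold change of the 8 was -0.22 against 0.03 over all genes, with 4 members above and 4 below 0, and their median absolute log2 fold change was 0.62 against 0.57. With 8 genes tested, these shares are not read as different from the background, and the markers did not move in a common direction.

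**Figure D1:**
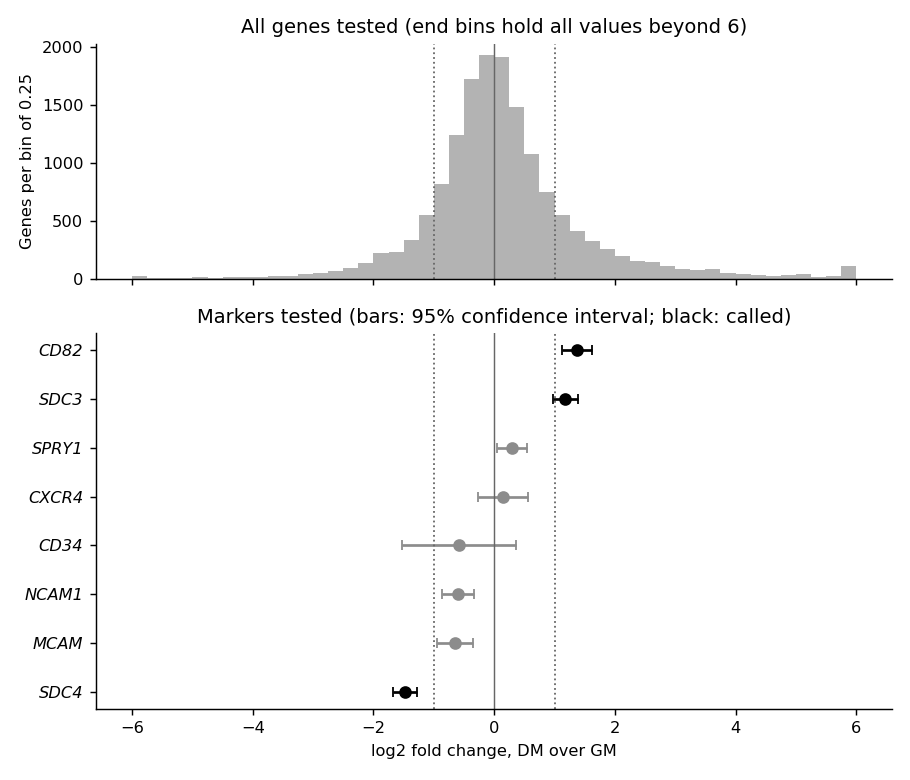
The upper panel counts all tested genes in bins of log2 fold change (DM over GM), and the lower panel shows the 8 tested markers with 95% confidence intervals, the called ones in black and dotted lines at a log2 fold change of 1 in either direction. CD82 (1.37) and SDC3 (1.18) lie to the right of the right line, SDC4 (-1.48) lies to the left of the left line, and the other 5 lie between the lines.

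Levels were compared between genes only as RPKM, gene counts scaled by the deposited gene length and by the sample's total gene count. In GM, NCAM1 was highest at 109 to 125 RPKM, followed by SDC4 at 80.4 to 84.3 RPKM. MCAM, SPRY1, CD82 and SDC3 followed between 8.40 and 13.0 RPKM, and each overlapped its neighbour in the order. CXCR4 had 2.49 to 3.86 RPKM, CD34 0.329 to 0.571 RPKM and CALCR at most 0.0215 RPKM, each apart from the next. In DM, NCAM1 still led with 58.4 to 82.5 RPKM. SDC4, CD82 and SDC3 came next between 18.5 and 29.4 RPKM, again with overlapping neighbours. SPRY1 (9.88 to 13.3 RPKM), MCAM (6.01 to 9.09), CXCR4 (2.85 to 3.57), CD34 (0.243 to 0.323) and CALCR (at most 0.0222) followed without overlap between neighbours. Summed over the listed markers, the level was 236 to 253 RPKM in GM and 162 to 173 RPKM in DM, and NCAM1 made up 46.2 to 49.9% of it in GM and 36.1 to 47.8% in DM, the lowest share being that of DM3. The coefficient of variation of CPM among the 3 samples of a group, over the 8 tested markers, went from 2.75% (SDC4) to 27.8% (CD34) in GM and from 8.04% (CD82) to 22.4% (MCAM) in DM.

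**Figure D2:**
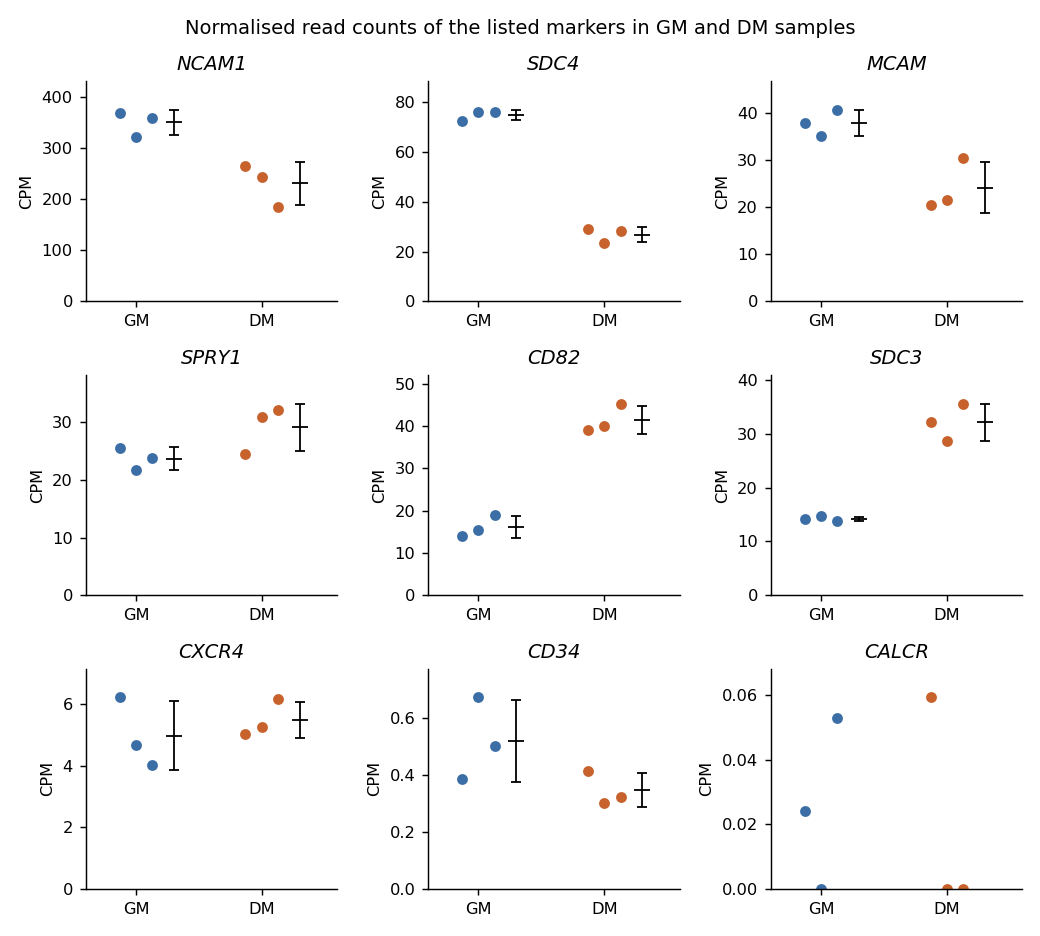
Each panel shows a marker's normalised read count (CPM, scaled by TMM library sizes, linear axis from 0) in the 3 GM samples (blue) and 3 DM samples (orange), in replicate order, with the mean and SD beside them; CALCR has no mean because it was at the detection limit. GM and DM points are apart for NCAM1, SDC4, MCAM, CD82 and SDC3, and overlap for SPRY1, CXCR4, CD34 and CALCR.

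The syndecans are transmembrane heparan sulfate proteoglycans that bind growth factors and matrix proteins at the cell surface, and the 2 syndecans of the set went in opposite directions. SDC3 (ENSBTAG00000026676, chromosome 2, 123237086 to 123244753, plus strand) had 586, 609 and 525 counts in GM1 to GM3 and 1090, 1052 and 1318 counts in DM1 to DM3. Every DM sample lay above every GM sample. Its mean rose from 14.2 ± 0.401 to 32.2 ± 3.44 CPM (SD, n = 3 per group), a log2 fold change of 1.18 ± 0.09 (SE) with an edgeR adjusted p of 1.29e-06. Its 95% confidence interval, 0.98 to 1.39, reached below 1, and in edgeR's test against a fold change of 2 it was not called (adjusted p 0.0662).

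SDC4 (ENSBTAG00000015127, chromosome 13, 74393120 to 74412880, minus strand) is the widely expressed syndecan of focal adhesions. It had 3012, 3163 and 2895 counts in GM and 982, 856 and 1041 counts in DM. All GM samples were high and all DM samples low, with no overlap. Its mean fell from 75.0 ± 2.06 to 26.9 ± 3.05 CPM (SD, n = 3 per group), a log2 fold change of -1.48 ± 0.09 (SE), 2.79-fold lower, with an edgeR adjusted p of 1.68e-07. Its absolute change was at the 81.8th percentile of all genes tested, the highest place among the 8 markers.

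Both other syndecans differed by less than the 2-fold minimum: SDC1 had a log2 fold change of -0.67 (adjusted p 1.42e-05, edgeR) and SDC2 of 0.73 (3.33e-06). As shares of the summed syndecan RPKM, SDC3 took 2.73 to 2.86% in GM and 8.58 to 9.91% in DM, and SDC4 took 23.1 to 25.1% in GM and 11.4 to 12.8% in DM. SDC1 remained the most abundant, with 63.4 to 66.1% in GM and 57.4 to 59.8% in DM, and SDC2 took 8.07 to 8.73% and 18.7 to 22.1%. None of the 4 shares overlapped between groups. In an exact two-sided permutation test each gave p = 0.1, also after adjustment over the 4 shares, which is the smallest p that 3 against 3 samples allow. The ratio of SDC4 to SDC3 in RPKM was 8.36 to 8.97 in GM and 1.28 to 1.47 in DM. A share does not depend on the library scaling, but the sizes depend on the gene lengths used, as the section on processing dependence gives.

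**Figure D3:**
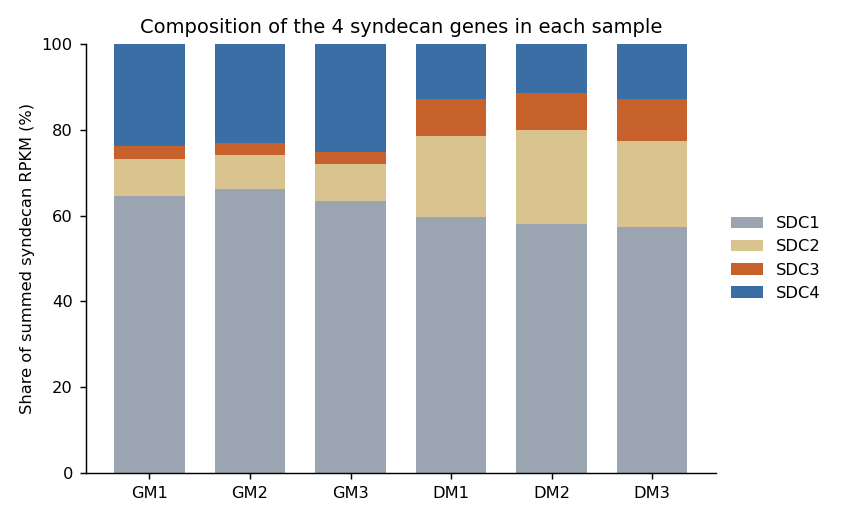
Stacked bars give the share (%) of each syndecan in the summed syndecan RPKM of each sample, 3 GM bars and 3 DM bars. The SDC3 band is at most 2.86% in GM and at least 8.58% in DM, and the SDC4 band at least 23.1% in GM and at most 12.8% in DM.

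CD82 (ENSBTAG00000031252, chromosome 15, 75507140 to 75567303, plus strand) is a tetraspanin, a membrane protein that organises integrins and other receptors into microdomains. It had 579, 637 and 719 counts in GM and 1323, 1466 and 1678 counts in DM. The lowest DM sample stood well above the highest GM sample. Its mean rose from 16.1 ± 2.59 to 41.5 ± 3.34 CPM (SD, n = 3 per group), a log2 fold change of 1.37 ± 0.11 (SE), 2.59-fold, with an edgeR adjusted p of 2.03e-06. The snoRNA gene SNORA61 lies inside its interval on the opposite strand and had at most 1 count in any sample.

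Some tetraspanin relatives were more abundant than CD82. CD63 had a mean of 750 RPKM in GM and 596 RPKM in DM, and CD81 had 156 and 154 RPKM, where CD82 had 9.65 and 23.3 RPKM. CD63 (log2 fold change -0.23, adjusted p 0.0120, edgeR) and CD151 (0.22, 0.0191) passed the adjusted p but not the fold minimum. The same held for TSPAN9 (0.66, 0.000824) and TSPAN7 (-0.44, 0.00136). CD9 (0.03, 0.815), CD81 (0.08, 0.460), TSPAN4 (0.07, 0.555) and CD53 (1.13, 0.327, at most 12 counts) did not pass the adjusted p. CD37, known from blood cells, was the only other tetraspanin of the list that was called, with a log2 fold change of -1.11 ± 0.13 (SE, adjusted p 3.05e-05). The difference in response between CD82 and its relatives was not tested.

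NCAM1 and MCAM are immunoglobulin superfamily adhesion molecules, and both were lower in DM by less than the 2-fold minimum. NCAM1 (ENSBTAG00000005710, chromosome 15, 24093189 to 24165578, plus strand) had 15302, 13402 and 13628 counts in GM and 8963, 8888 and 6805 counts in DM. The groups did not overlap, and DM3 was the lowest sample. Its log2 fold change was -0.60 ± 0.12 (SE, adjusted p 0.00108, edgeR), 1.52-fold lower, and without DM3 it was -0.45 (adjusted p 4.03e-06).

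MCAM (ENSBTAG00000006835, chromosome 15, 30414474 to 30422213, minus strand), also known as CD146, had 1573, 1458 and 1542 counts in GM and 694, 789 and 1125 counts in DM. DM3 was again apart, this time as the highest DM sample, but still below every GM sample. The log2 fold change was -0.65 ± 0.14 (SE, adjusted p 0.00171, edgeR), 1.57-fold lower, and without DM3 it was -0.84 (adjusted p 2.77e-09). Relative to the mean of DM1 and DM2, DM3 was 0.53 higher in MCAM and fell by 0.47 in NCAM1 on the log2 scale, compared with a median absolute deviation of 0.15 over all genes tested. The RPKM ratio of NCAM1 to MCAM was accordingly 9.38 to 10.3 in GM, 12.0 and 13.7 in DM2 and DM1, and 6.42 in DM3.

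MCAM is also a marker of pericytes and endothelium. Of the 12 pericyte and smooth muscle markers, 4 were called higher and none lower (33.3% called, beside 25.3% of all genes). The potassium channel gene KCNJ8 led these calls (log2 fold change 5.60). The summed level of the 12 markers was 2774 to 2931 CPM in GM and 2811 to 3332 CPM in DM. Most of it was ACTA2 (mean 1191 CPM in GM and 1351 CPM in DM) and TAGLN (1371 and 1115 CPM). The sum therefore does not show how the less abundant markers moved. The defining pericyte gene RGS5 had 0 to 4 counts. CSPG4, the pericyte proteoglycan also called NG2, had 1977 and 1962 counts in DM1 and DM2 and 5449 counts in DM3. The part of these cells in the MCAM values was not tested.

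SPRY1 (ENSBTAG00000021245, chromosome 17, 34749102 to 34753222, minus strand) is a feedback inhibitor of receptor tyrosine kinase signaling. It had 1063, 901 and 903 counts in GM and 825, 1130 and 1188 counts in DM. In normalised counts, DM2 and DM3 were above all GM samples and DM1 lay among them, so the groups overlapped. The log2 fold change was 0.30 ± 0.11 (SE, 95% confidence interval 0.05 to 0.54) with an edgeR adjusted p of 0.0358. This p did not hold with library size as the only scaling (0.157), nor without DM2 (0.0917), GM2 (0.134) or GM3 (0.0863).

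The other sprouty genes had larger absolute log2 fold changes. SPRY4 had 1451, 1493 and 1353 counts in GM and 57, 47 and 120 counts in DM, a log2 fold change of -4.09 ± 0.24 (SE, adjusted p 1.43e-07, edgeR), 17.1-fold lower. SPRY3 had 8, 14 and 13 counts in GM and 76, 83 and 58 counts in DM, and was called higher with a log2 fold change of 2.79 ± 0.34 (SE, adjusted p 3.86e-05). SPRY2 had a log2 fold change of -0.91 (adjusted p 1.54e-05) and was not called. By proportion, SPRY1 made up 22.5 to 25.6% of the summed sprouty RPKM in GM and 49.5 to 54.4% in DM, while SPRY4 made up 39.5 to 43.1% in GM and 2.62 to 6.23% in DM. The ratio of SPRY1 to SPRY4 in RPKM was 0.522 to 0.633 in GM and 8.56 to 20.8 in DM, and no test was run on these proportions, which were added after the values were seen.

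CXCR4 (ENSBTAG00000001060, chromosome 2, 61582125 to 61585838, plus strand) is the receptor of the chemokine CXCL12. It had 258, 194 and 153 counts in GM and 170, 193 and 228 counts in DM. The GM samples spanned the whole range of the DM samples after normalisation, at 4.97 ± 1.13 CPM against 5.49 ± 0.594 CPM (SD, n = 3 per group). The log2 fold change was 0.14 with a 95% confidence interval of -0.27 to 0.56 (adjusted p 0.532, edgeR), so a 2-fold change in either direction lay outside the interval.

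CD34 (ENSBTAG00000010562, chromosome 16, 77367502 to 77389361, plus strand) is a sialomucin of haematopoietic, endothelial and satellite cells. It had 16, 28 and 19 counts in GM and 14, 11 and 12 counts in DM. The groups overlapped in CPM, and all 6 samples were low. The log2 fold change was -0.58 with a 95% confidence interval of -1.53 to 0.36 (adjusted p 0.253, edgeR), so at this depth a 2-fold decrease could not be told from no change. The related podocalyxin gene PODXL had 119, 105 and 109 counts in GM and 1, 0 and 1 in DM. Against the limit of 3 counts per sample it was at least 31.0-fold lower in DM.

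CALCR (ENSBTAG00000017458, chromosome 4, 10614458 to 10724579, minus strand), the receptor of calcitonin, had 1, 0 and 2 counts in GM and 2, 0 and 0 counts in DM. No sample exceeded the limit of 3 counts, so its level was not distinguishable from 0 in either group and no fold change is given. The microRNA genes bta-mir-489 and bta-mir-653 lie inside its interval on the same strand and had 0 counts in every sample, in libraries made from polyadenylated RNA. The related receptor gene CALCRL, which forms the adrenomedullin receptor together with RAMP2, had 243, 213 and 179 counts in GM and 1020, 1309 and 1323 in DM, a log2 fold change of 2.69 ± 0.11 (SE, adjusted p 1.89e-08, edgeR).

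The same reads counted on mRNA transcripts gave 12 transcripts of the 9 genes, 11 of them tested. The calls were 4 (beside 25.6% of all 16352 mRNA transcripts tested): those of SDC3 and CD82 and both of SDC4. The 2 SDC4 transcripts had log2 fold changes of -1.50 and -1.54. Those of NCAM1 (both -0.62) and of MCAM (-0.67 and -0.68) also moved alike. Reads shared by transcripts were counted on each of them, since the transcript counts summed to 1.91 times the gene count for MCAM and 1.85 times for SDC4, and each NCAM1 transcript held nearly all NCAM1 counts. These counts therefore do not show which isoform carried the reads, and they are not independent of the gene counts.

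Partners of the markers were described from a list of ligands, co-receptors and modifying enzymes. Of 25 listed genes 21 were tested, of which 9 were called higher and 4 lower (61.9% called, beside 25.3% of all genes). Their median log2 fold change was 0.58, against 0.03 over all genes. The calls of RAMP2, COL5A1 and LAMA4 lay just past the minimum fold change and were lost with library size as the only scaling (0.97, 0.96 and 0.93), and LAMA4 was also lost without DM1 (0.96). CALCB, IAPP and RAMP3 were at 0 counts in every sample. The calcitonin gene CALCA had 17, 48 and 20 counts in GM and 0 in every DM sample, at least 7.85-fold lower against 3 counts per sample, and RAMP2 had a log2 fold change of 1.06 ± 0.07 (SE, adjusted p 3.54e-07, edgeR). The chains of collagen V, a known CALCR ligand in mouse satellite cells, were COL5A1 (1.05 ± 0.07), COL5A2 (0.81 ± 0.08, not called) and COL5A3 (4.74 ± 0.10). COL5A3 had 980 to 1028 counts in GM and 21730 to 27849 counts in DM.

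The chemokine partners of CXCR4 were not called: CXCL12 had a log2 fold change of 0.18 (adjusted p 0.397, edgeR) and the scavenging receptor ACKR3 of 0.55 (0.00139). CXCL12 had 2939 and 2784 counts in DM1 and DM2 and 5036 in DM3. Among the integrin chains that bind VCAM1, ITGA4 rose from 103 to 140 counts in GM to 236 to 319 counts in DM (log2 fold change 1.31 ± 0.19, adjusted p 0.000157), and ITGB7 rose from 12 to 19 counts to 27 to 56 counts (1.63 ± 0.37, 0.00279). The shared beta chain ITGB1 was the most abundant of them and had a log2 fold change of -0.65, which was not called.

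For NCAM1, the polysialyltransferase gene ST8SIA2 rose from 39 to 70 counts in GM to 123 to 160 counts in DM (log2 fold change 1.66 ± 0.25, adjusted p 0.000154, edgeR). The second such enzyme, ST8SIA4, was the more abundant in RPKM and had a log2 fold change of 0.23 (0.0765). LAMA4, a laminin chain that binds MCAM, was called higher (1.03 ± 0.09). The NCAM1 relative NCAM2 was called higher from 0 to 4 counts in GM to 12 to 35 counts in DM.

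Among the partners of the syndecans and of growth factor receptors, fibronectin FN1 rose (log2 fold change 1.97 ± 0.09, adjusted p 3.52e-08, edgeR) and the Wnt receptor FZD7 rose (1.40 ± 0.10, 4.92e-07). NOTCH1, which interacts with SDC3, fell (-1.37 ± 0.09, 3.28e-07). The hepatocyte growth factor HGF (-1.79 ± 0.16, 4.25e-06) and its receptor MET (-3.15 ± 0.16, 5.61e-08) both fell, MET from 4765 to 5016 counts in GM to 358 to 610 counts in DM. The fibroblast growth factor receptors FGFR1 (0.58, 4.80e-05) and FGFR4 (-0.04, 0.900) were not called. FGFR4 had 1095 and 1031 counts in DM1 and DM2 and 516 in DM3.

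**Figure D4:**
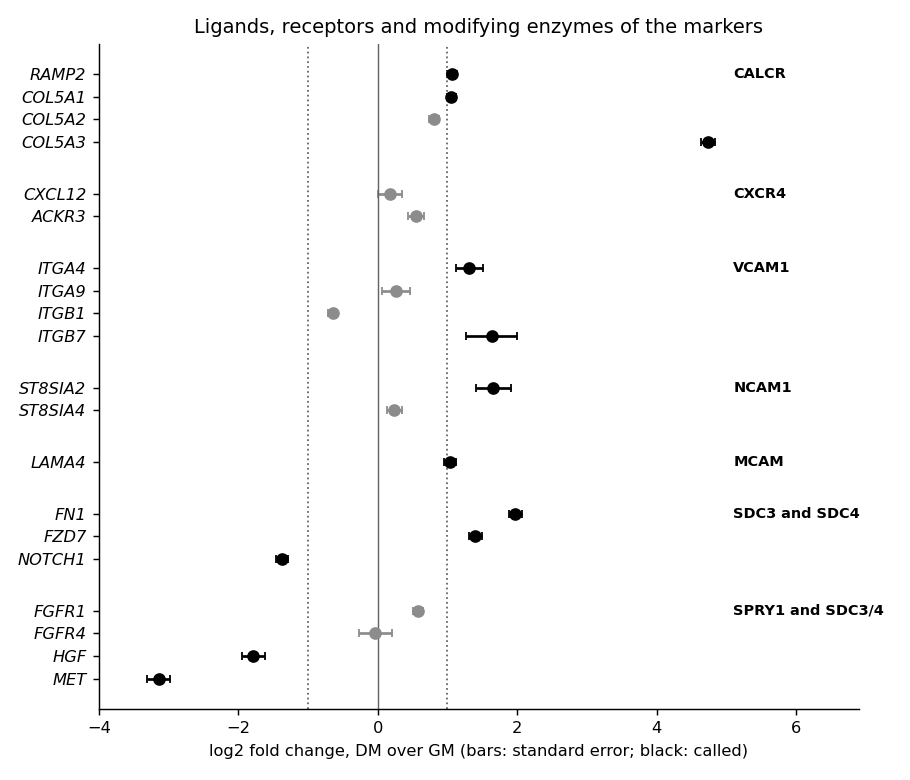
Points give the log2 fold change (DM over GM) of 20 tested partner genes with the standard error as bars, grouped by the marker they belong to, black where called and dotted lines at 1 in either direction. COL5A3 (4.74) lies farthest right and MET (-3.15) farthest left; CALCA is left out because all its DM counts were 0.

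The wider families and pathways held calls in both directions. Of the 30 family relatives tested, 6 were called higher and 3 lower (30% called, median 0.05). Of 25 heparan sulfate enzymes, which build and modify the chains that syndecans carry, 2 were called higher and 4 lower (24% called). Beside the 25.3% called of all genes tested, neither share is read as different. Whether called or not, 19 of the 25 enzymes had a log2 fold change below 0 and 6 above it (median -0.47, against 0.03 over all genes). At an adjusted p under 0.05, 14 of them differed (edgeR, beside 63% of all genes), and 3 had under 10 counts in every sample. The median is the value of HPSE, which had 3 to 11 counts and did not pass the adjusted p (0.569, edgeR). Of the 14 that passed it, XYLT1, XYLT2, EXTL1 and SULF2 were higher in DM and the others lower. The list was not tested as a set, so the signs are not read as a common fall. The calls were led by the glycosyltransferase EXTL1 (3.27 ± 0.40, SE) upwards and the sulfotransferase HS3ST1 (-3.80 ± 0.35) downwards. HS3ST1 had 231 to 294 counts in GM and 7 to 27 counts in DM, while EXTL1 had 4 to 10 and 53 to 86 counts. HS3ST6, also called lower, had 17 to 38 counts in GM and 2 to 13 in DM. Its call was lost without GM1, GM2, DM1 or DM2. Of 30 other satellite cell and quiescence genes, 9 were called higher and 7 lower (53.3% called, beside 25.3% of all genes, median -0.09). Among those with a mean of at least 1 CPM the calls were led by the phagocytic receptor MEGF10 (2.65) upwards and MET (-3.15) downwards, and PAX3, at the low counts given above, was also called lower by edgeR but not by DESeq2 (adjusted p 0.0728). PAX7, the defining transcription factor of satellite cells, had a log2 fold change of -0.92 ± 0.20 (SE, adjusted p 0.00232, edgeR) and was not called. Its counts were 415 and 400 in DM1 and DM2 but 226 in DM3, so part of this change rests on DM3.

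**Figure D5:**
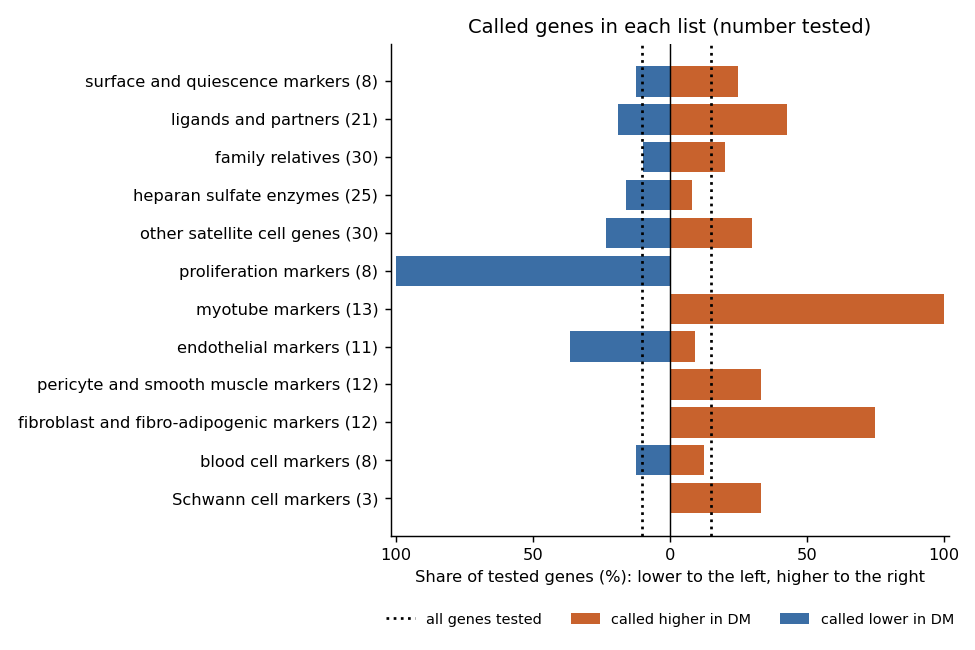
For each list (number of genes tested in brackets), bars to the right give the share (%) called higher in DM and bars to the left the share called lower, with dotted lines at the shares over all genes tested (15% and 10.3%). Among the surface and quiescence markers 2 of 8 lie to the right and 1 of 8 to the left, while the proliferation markers lie wholly to the left and the myotube markers wholly to the right.

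Markers of other cell types moved with the groups in part. The called shares were 75% (fibroblast and fibro-adipogenic), 45.5% (endothelial), 25% (blood cell) and 33.3% (Schwann cell), beside 25.3% of all genes tested. Of the 12 fibroblast and fibro-adipogenic markers tested, 9 were called higher and none lower, led among those with at least 1 CPM by MFAP5 (log2 fold change 2.57). POSTN was the only one with a log2 fold change below 0 (-0.93, adjusted p 0.00316, edgeR). The summed level of the list was 35956 to 36731 CPM in GM and 98380 to 124106 CPM in DM. Most of this sum came from COL1A1, COL1A2 and COL3A1. Their means were 15288, 10730 and 8299 CPM in GM and 44329, 23421 and 39253 CPM in DM. Of 11 endothelial markers, 4 were called lower, led by FLT1 (-2.56), and TEK was called higher (1.51), at summed levels of 20.8 to 23.7 CPM in GM and 15.6 to 26.0 CPM in DM. Among the lower calls, TIE1 had 6 to 11 counts in GM and 0 to 3 in DM and was not called by DESeq2 (adjusted p 0.0892). The TIE1 call was also lost without DM1, DM2, GM1 or GM2, and in a fit that blocked by sample number. CDH5, with 6 to 32 counts in GM and 1 to 8 in DM, overlapped between groups. Its call was lost without DM1, GM1 or GM2. PECAM1 had 0 to 8 counts and EMCN 0 to 3. Of 8 blood cell markers, CD14 (2.75) was called higher and CD68 (-1.04) lower, a call that was lost without GM1, GM2 or DM3, at 6.94 to 9.28 CPM in GM and 8.08 to 14.4 CPM in DM, with PTPRC at 0 to 2 counts and CD3E at 0 or 1. Of 3 Schwann cell markers tested, ERBB3 was called higher (4.29), and the summed level was 2.26 to 4.77 CPM in GM and 34.4 to 46.4 CPM in DM. The part of these cells in the values of the surface markers was not tested, and in bulk RNA fewer cells of a type and less RNA per cell cannot be told apart.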

How the data were processed

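PolyA RNA-seq of 3 GM and 3 DM samples was analysed. The authors deposited raw counts per gene and per mRNA transcript, together with RPKM values. The gene RPKM values used here equal the gene counts divided by the deposited Length (feature length in bases) and by the sample's total gene counts; transcript RPKM, on another total, was not used. The study's methods name HISAT2 and the buffalo genome. The submitters' processing notes list Bowtie 0.12.2 and the mouse builds mm8 and mm9. The deposited tables hold cattle Ensembl identifiers, and positions are given as in those tables, whose build is not given in the sources used here. Whether counting used strand is not stated either. The deposited lists with the authors' own fold changes and p-values, and the ncRNA table, were not used.

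Genes with at least 10 counts over the 6 samples were tested with edgeR 4.0.16 (R 4.3.3; TMM scaling, quasi-likelihood F test, Benjamini-Hochberg adjustment over all genes tested), and called where the adjusted p was under 0.05 and the log2 fold change exceeded 1 in either direction. CPM used TMM library sizes. DESeq2 1.42.0 was an alternative. The script was tested on simulated counts. Syndecan shares were compared by exact permutation. Named were all members, called partners, called syndecans, sproutys and tetraspanins. From each other list the called gene with the largest change in each direction at a mean of at least 1 CPM was named. Further relatives and list genes, CSPG4, CXCL12 and genes inside member intervals were chosen after their values were seen. The members and lists were chosen with earlier results of these data known. Intervals and detection limits cover the spread between samples or counting error only. Samples shared numbers 1 to 3 across groups, but same-numbered samples did not deviate together.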

Additional observations from a re-analysis of the deposited data

How the results depend on the processing

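Across 16 alternatives the number of markers called lay between 2 and 6, and no log2 fold change of a marker reversed. With no minimum fold change 6 markers passed, 3 of them lower in DM, and when edgeR tested against a 2-fold change only 1 was higher (CD82), since SDC3 was lost. Leaving out each sample in turn changed no call: SDC3 lay between 1.11 and 1.27, SDC4 between -1.53 and -1.38 and CD82 between 1.28 and 1.50 on the log2 scale. As shares of counts rather than RPKM, the differences of DM from GM were 7.09 percentage points for SDC2 (11.7 as RPKM), 5.08 for SDC3 (6.28) and -5.58 for SDC4 (-11.7), a change that follows from the gene lengths. With the replicate block, 3 markers were called and 3837 of all genes instead of 3936. The same-number correlations of deviations were -0.0076, -0.022 and -0.010. No pairing by number was seen, but with 3 samples per group these values cannot exclude it, and the labels do not state it. The 2-fold test called 2293 genes and the study's RPKM minimum 2197. Library size alone took the all-gene median from 0.03 to -0.07 (log2). Partner calls lay between 10 and 13 (10 with library size alone), and heparan sulfate enzyme calls between 5 and 7. Endothelial calls lay between 3 and 5 (3 without DM1, GM1 or GM2) and blood cell calls between 1 and 3 (1 without DM3 or GM2). Depth limits CALCR, at the detection limit, and CD34, with 11 to 28 counts per sample.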
